A study of Mus musculus with 12 samples.

Results

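The 48 mouse genes described here encode the machinery that brings proteins into mitochondria, the channels and anchors of the outer membrane, and the proteins that fuse, divide, move and shape the organelle. They were taken as a list of gene names out of 55416 gene identifiers in the count files. No measured value entered the rule for the list, but it was chosen with earlier results of these data known. All 48 were matched to 1 identifier each and all 48 passed the filter on low counts. Of these, 20 encode proteins of the outer membrane, 7 of the intermembrane space, 19 of the inner membrane or matrix (11 and 8) and 2 are cytosolic proteins that act at the mitochondrial surface.

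RNA came from mouse embryonic stem cells of the line E14Tg2a.4 with a tagged ribosomal protein, Rpl31-FLAG-TEV-AviTag, whose AviTag is a peptide that a biotin ligase can modify and whose TEV site allows elution. All 12 libraries came from these cells after transfection with plasmids for the N- and C-terminal fragments of ALIBi, a proximity biotinylation system, aimed at the cytosol in 6 libraries and at the endoplasmic reticulum (ER) in the other 6. For each targeting, 3 libraries hold poly(A) RNA from affinity-purified biotinylated ribosomes (ribosome-bound) and 3 hold RNA from the lysate itself, kept back as input (whole-cell). Cycloheximide, which stalls elongating ribosomes, was in the lysis and wash buffers. The tagged line serves as the only cell background, and no library lacks the ALIBi plasmids. The titles number the replicates as biological but name no separate cultures, so the p-values cover the spread among these 12 libraries. The study's design also speaks of a targeting or scrambled siRNA in some cells; no label of these 12 libraries names one, so whether any of them received it is not given in the sources used here. No library holds ribosomes labelled at the mitochondrial surface.

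Nearly all mitochondrial proteins are encoded in the nucleus, made on cytosolic ribosomes and imported. The TOM complex of the outer membrane is the entry gate. From there the SAM complex inserts beta-barrel proteins, small TIM chaperones guide hydrophobic cargo across the intermembrane space, and the TIM22 and TIM23 complexes insert proteins into the inner membrane or, with the PAM motor, pull them into the matrix, where peptidases and chaperones mature them. Most of these proteins are finished before import, although mRNAs of some mitochondrial proteins are known to sit near the organelle, and Akap1 is an outer membrane protein known to hold mRNAs there.

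Libraries held 21110420 to 26920565 reads in genes, and the lowest count of any member in any library was 131. All 10 embryonic stem cell markers examined were read in every library, at a summed 7590 to 9770 CPM (read counts scaled to library size), against 63.3 to 77.7 for neural, 14.7 to 22.3 for mesoderm and 7.8 to 15.4 for endoderm markers. Fibroblast markers summed to 18.7 to 21.9 CPM except in the 3 ER ribosome-bound libraries, at 68.5 to 74.0 CPM, led by Thy1, a surface glycoprotein gene; 3 of the 5 were read in every library and 2 were under 1 CPM, and their part in the results was not tested. In bulk RNA, fewer cells of a type and less RNA per cell cannot be told apart. Between whole-cell RNA of the 2 targetings, 0 of 16221 genes tested (0%) were called at an adjusted p under 0.05 (edgeR, quasi-likelihood test, Benjamini-Hochberg adjustment over all genes tested), 634 had an unadjusted p under 0.05, and DESeq2 called 0 with 342 unadjusted. Among the members 3 had an unadjusted p under 0.05 and the log2 ratios of ER over cytosol whole-cell RNA ran from -0.11 to 0.13.

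The first question was which of these mRNAs were more abundant on ER-labelled than on cytosol-labelled ribosomes. The answer was a small set: Akap1, Timm21, Tomm20, Tomm40, Timm22, Dnajc19, Timm50 and Pam16 were 1.55-fold to 2.40-fold higher on ER-labelled ribosomes. No member was called more than 1.5-fold lower. Among all 16221 genes tested, 3474 were called more than 1.5-fold higher and 123 more than 1.5-fold lower. The share of members this much higher was thus not above that of all genes, and lower calls of this size were rare. In all, 15 of the 48 members were called higher and 19 lower, against 29.1% and 24.6% of all genes tested, and the median member log2 ratio was 0.02 beside 0.00 for all genes. These shares are near the background for higher calls and above it for lower ones. The 8 enriched members came from both membranes and the matrix side: 3 from the outer membrane, 4 from the inner membrane and 1 from the matrix. Scaling to a list of cytosolic housekeeping genes instead of all genes moved the median of all genes by 0.235 on the log2 scale in this comparison, turned the counts to 34 higher and 4 lower (8184 and 644 of all genes), and changed the sign of every member between -0.22 and 0; the shift was about the same for every member.

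**Figure D1:**
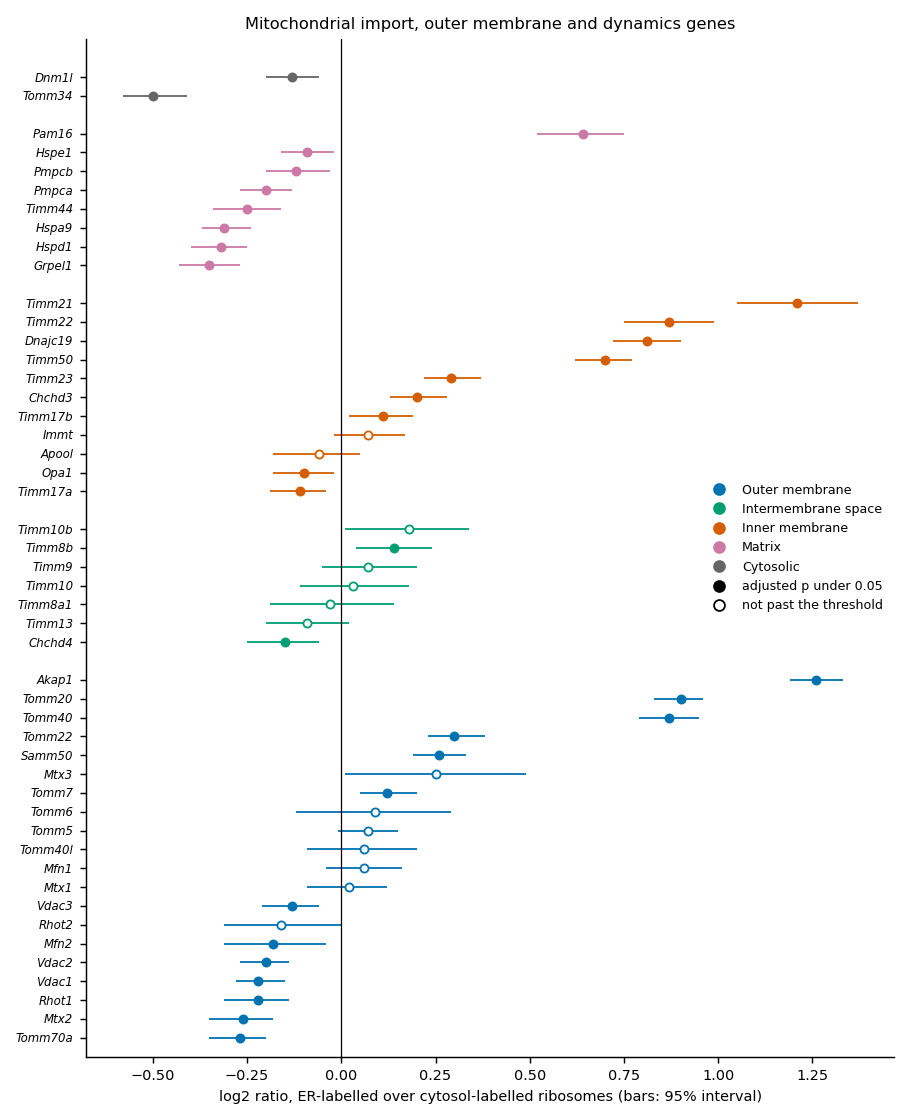
Log2 ratio of ER-labelled over cytosol-labelled ribosomes (x axis) for each of the 48 members (rows), grouped by where the protein resides; bars are 95% intervals from the fitted standard error, filled points passed an adjusted p of 0.05. Akap1 (1.26), Timm21 (1.21) and 6 others stand to the right at 0.64 or more, and Tomm34 (-0.50) is the lowest; scaling to cytosolic genes would move all points right by about 0.235, so that points from -0.22 to 0 change sign.

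Among outer membrane members, 6 of 20 were called higher and 7 lower, with a median log2 ratio of 0.06. The highest was Akap1 (ENSMUSG00000018428), which anchors protein kinase A and mRNAs at the outer membrane. Its level was 77.0, 74.7 and 75.4 CPM in the 3 cytosol ribosome-bound libraries and 181.8, 186.3 and 175.9 CPM in the 3 ER ribosome-bound libraries. Whole-cell RNA held 198.1, 197.2 and 192.2 CPM with cytosol targeting and 195.7, 198.3 and 194.8 CPM with ER targeting. The cytosol ribosome-bound libraries thus stood alone at the bottom, below every other library, while the ER ribosome-bound ones lay just under whole-cell RNA. ER-labelled over cytosol-labelled ribosomes gave a log2 ratio of 1.26 (SE 0.036, 2.40-fold, adjusted p = 9.5e-27).

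Tomm20 (ENSMUSG00000093904), a TOM receptor that binds presequences, read 355.5, 365.4 and 359.4 CPM on cytosol-labelled ribosomes and 654.9, 683.8 and 672.2 CPM on ER-labelled ones. Its whole-cell levels lay between, at 458.8, 443.2 and 457.9 CPM with cytosol targeting and 455.4, 479.7 and 467.9 CPM with ER targeting. No group of ribosome-bound libraries overlapped another or the whole-cell range, and the log2 ratio was 0.90 (SE 0.033, adjusted p = 2.2e-23). In the reference annotation 4 pseudogenes match the Tomm20 transcript at 95% identity or more over at least 150 bases, so how its reads were counted could matter and was not tested. Tomm70a (ENSMUSG00000022752), the TOM receptor for hydrophobic carrier proteins, went the other way: it read 181.5, 195.0 and 177.4 CPM on cytosol-labelled and 150.3, 154.2 and 154.0 CPM on ER-labelled ribosomes. All 3 ER ribosome-bound libraries were below the other 9, whose lowest was 177.3 CPM, and the log2 ratio was -0.27 (SE 0.038, adjusted p = 1.1e-07), or -0.04 and no longer called with cytosolic scaling.

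Akap1, Tomm20 and Tomm70a are the 3 members held in the outer membrane by a hydrophobic stretch near the N terminus. Their coding sequences there are printed beside unlike ratios of 1.26, 0.90 and -0.27. That of Tomm70a was -0.04 and not called with cytosolic scaling. Capitals mark the 57 bases that encode the most hydrophobic window of 19 residues, with up to 6 codons on each side, 5′ to 3′, from GENCODE M21 transcripts (GRCm38).
Akap1: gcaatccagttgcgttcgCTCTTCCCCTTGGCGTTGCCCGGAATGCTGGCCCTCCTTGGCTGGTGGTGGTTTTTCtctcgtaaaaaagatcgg
Tomm20: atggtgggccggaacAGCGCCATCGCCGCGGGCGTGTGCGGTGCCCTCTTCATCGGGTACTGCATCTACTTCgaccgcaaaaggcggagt
Tomm70a: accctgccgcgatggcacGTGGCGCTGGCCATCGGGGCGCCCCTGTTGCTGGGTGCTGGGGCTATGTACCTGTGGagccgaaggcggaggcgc
On the Kyte-Doolittle scale, where higher means more hydrophobic, the windows average 1.58 in Akap1 (residues 8 to 26), 1.83 in Tomm20 (residues 6 to 24) and 1.77 in Tomm70a (residues 44 to 62). The window thus starts at residue 8 or 6 in the members with the high ratios and at residue 44 in Tomm70a, a description over 3 genes.

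Tomm40 (ENSMUSG00000002984) encodes the beta-barrel channel of the TOM complex. It read 125.1, 136.5 and 134.7 CPM on cytosol-labelled ribosomes against 226.5, 246.2 and 251.6 CPM on ER-labelled ones. Whole-cell RNA held 121.1, 120.6 and 111.2 CPM with cytosol targeting and 116.6, 109.5 and 120.8 CPM with ER targeting. The ER ribosome-bound libraries stood above the other 9, and the log2 ratio between ribosome-bound groups was 0.87 (SE 0.043, adjusted p = 1.9e-19). Its paralog Tomm40l, with 59.7% identical residues, had a ratio of 0.06 (adjusted p = 0.57, 95% interval -0.09 to 0.20). In the reference annotation Tomm40 lies between Nectin2 and Apoe on the same strand, which encode a membrane protein and a secreted protein and had log2 ratios of 2.01 and 2.45; the part of reads from these neighbours in the Tomm40 value was not tested.

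The remaining TOM subunits moved less. Tomm22, the central receptor, was higher at 0.30 (SE 0.039, adjusted p = 2.1e-08). The small subunits Tomm5, Tomm6 and Tomm7, which stabilise the channel, had ratios of 0.07, 0.09 and 0.12, of which only Tomm7 passed the threshold (adjusted p = 0.0067), and it lost the call in 13 of 19 alternatives. Of the 8 TOM subunits, 4 (50.0%) were called higher and 1 (12.5%) lower, beside 29.1% and 24.6% of all genes. Their median was 0.10.

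The SAM complex showed the same spread on a smaller scale. Samm50, its beta-barrel core, was higher at 0.26 (SE 0.036, adjusted p = 1.4e-07), and Mtx2, a peripheral subunit, was lower at -0.26 (adjusted p = 2.3e-06), which became -0.03 and no longer called with cytosolic scaling. Mtx1, a subunit with a C-terminal anchor, had a ratio of 0.02 (adjusted p = 0.82), and Mtx3, its paralog and the least abundant member per length, had 0.25 (adjusted p = 0.091). The 3 voltage-dependent anion channels Vdac1, Vdac2 and Vdac3, through which metabolites cross the outer membrane, were all called lower on ER-labelled ribosomes, at -0.22, -0.20 and -0.13 (adjusted p = 6.4e-07, 1.9e-06 and 0.0023), but at 0.02, 0.03 and 0.10 with cytosolic scaling. The 6 beta-barrel members therefore ran from -0.22 (Vdac1) to 0.87 (Tomm40), and the 8 members with a C-terminal anchor from -0.22 (Rhot1) to 0.30 (Tomm22).

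Members of the intermembrane space barely differed between the ribosome pools. Of 7, 1 was called higher and 1 lower (14.3% each), beside 29.1% and 24.6% of all genes. Their median was 0.03 and their range -0.15 to 0.18. The highest was Timm10b, a small TIM chaperone, at 14.0, 11.3 and 12.6 CPM on cytosol-labelled and 15.2, 14.1 and 13.5 CPM on ER-labelled ribosomes, with overlapping groups (log2 ratio 0.18, SE 0.086, adjusted p = 0.081). The lowest was Chchd4, the receptor of the disulfide relay that folds these proteins, at 80.2, 87.5 and 87.8 CPM on cytosol-labelled and 70.6, 78.1 and 81.0 CPM on ER-labelled ribosomes. These groups overlapped by 1 library, and the ratio of -0.15 (SE 0.048, adjusted p = 0.007) became 0.08 and not called with cytosolic scaling.

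The other small TIM chaperones, which escort membrane proteins in pairs of different subunits, gave 0.14 for Timm8b, 0.07 for Timm9, 0.03 for Timm10, -0.03 for Timm8a1 and -0.09 for Timm13. Timm8b was called (adjusted p = 0.024) but lost the call in 14 of 19 alternatives, and with cytosolic scaling all 6 small TIM members were called higher, at 0.15 to 0.41, with a median of 0.29 against 0.24 for all genes.

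Inner membrane members were more often higher than lower on ER-labelled ribosomes. Of 11, 7 (63.6%) were called higher and 2 (18.2%) lower, with a median of 0.20. Of 8 matrix members 1 (12.5%) was called higher and 7 (87.5%) lower, with a median of -0.22. Among all genes tested 29.1% were called higher and 24.6% lower. Cytosolic scaling moved the median of all genes by 0.235. It gave 11 inner membrane members higher and 0 lower (median 0.44), and 3 and 3 matrix members (median 0.01). The highest inner membrane member was Timm21 (ENSMUSG00000024645), a TIM23 subunit that links the complex to the respiratory chain. It read 9.8, 10.5 and 9.9 CPM on cytosol-labelled and 23.6, 21.7 and 24.5 CPM on ER-labelled ribosomes, against 10.0, 12.7 and 12.9 CPM in cytosol-targeted and 11.5, 10.8 and 11.7 CPM in ER-targeted whole-cell RNA. The 3 ER ribosome-bound libraries were above all others, and the cytosol ribosome-bound ones lay below the ER whole-cell ones and overlapped the cytosol whole-cell ones. The log2 ratio was 1.21 (SE 0.082, 2.31-fold, adjusted p = 2.0e-15).

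Timm22, the channel that inserts carrier proteins into the inner membrane, rose from 22.5, 24.7 and 22.9 CPM on cytosol-labelled to 43.0, 40.8 and 44.4 CPM on ER-labelled ribosomes (log2 ratio 0.87, SE 0.062, adjusted p = 6.9e-15). Timm50, the TIM23 receptor for presequences, rose from 77.7, 76.9 and 76.1 to 123.8, 124.3 and 126.4 CPM (0.70, SE 0.038, adjusted p = 4.4e-18). Dnajc19, a J-domain protein anchored in the inner membrane, rose from 41.8, 41.4 and 40.2 to 70.7, 71.9 and 73.8 CPM (0.81, SE 0.047, adjusted p = 2.0e-17). In each of these genes the lowest ER ribosome-bound library lay above the highest of the other 9 libraries.

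Timm22, Timm50 and Dnajc19 each have a hydrophobic window averaging at least 1.6, and the coding bases around it are printed as above because these 3 members carry the inner membrane result together with Timm21.
Timm22: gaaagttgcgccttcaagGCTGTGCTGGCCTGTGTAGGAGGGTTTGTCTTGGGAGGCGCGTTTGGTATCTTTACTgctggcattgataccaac
Timm50: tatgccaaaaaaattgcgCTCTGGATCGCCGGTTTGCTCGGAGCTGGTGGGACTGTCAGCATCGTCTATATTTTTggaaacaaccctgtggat
Dnajc19: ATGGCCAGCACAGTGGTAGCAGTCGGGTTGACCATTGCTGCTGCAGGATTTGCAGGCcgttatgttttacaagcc
The windows average 2.02 in Timm22 (residues 73 to 91), 1.81 in Timm50 (residues 68 to 86) and 1.74 in Dnajc19 (residues 1 to 19). Timm21 has the most hydrophobic window of all members, averaging 2.34 at residues 109 to 127.

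The rest of the inner membrane set was closer to 0. Timm23, the channel of the TIM23 complex, was higher at 0.29 (SE 0.038, adjusted p = 3.2e-08), with 5 near-identical pseudogenes in the annotation. Its partners Timm17a and Timm17b, paralogs with 74.9% identical residues, split in sign at -0.11 (adjusted p = 0.015) and 0.11 (adjusted p = 0.033), but both were positive with cytosolic scaling (0.12 and 0.34), and Timm17b lost its call in 14 of 19 alternatives. In the MICOS complex, which shapes the cristae, Chchd3 was higher at 0.20 (adjusted p = 2.8e-05), while Immt and Apool had 0.07 and -0.06 (adjusted p = 0.20 and 0.38).

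Matrix members were mostly lower on ER-labelled ribosomes. The lowest was Grpel1, the nucleotide exchange factor of the import motor, at 93.9, 101.6 and 101.1 CPM on cytosol-labelled and 79.3, 75.0 and 78.2 CPM on ER-labelled ribosomes, with whole-cell libraries between, at 81.4 to 84.2 CPM. The groups did not overlap, and the ratio was -0.35 (SE 0.041, adjusted p = 2.1e-09). Hspa9, the mitochondrial Hsp70 of the motor, gave -0.31, Hspd1, the chaperonin subunit, -0.32, and Timm44, which tethers Hspa9 to the TIM23 channel, -0.25 (adjusted p = 3.0e-10, 1.9e-09 and 8.9e-06). With cytosolic scaling Grpel1, Hspa9 and Hspd1 stayed lower at -0.12, -0.07 and -0.09, and Timm44 was no longer called at -0.02.

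The co-chaperonin Hspe1 and the processing peptidase subunits Pmpca and Pmpcb, which remove presequences, gave -0.09, -0.20 and -0.12 (adjusted p = 0.026, 2.2e-05 and 0.019), and 0.14, 0.04 and 0.12 with cytosolic scaling. Hspe1 and Pmpcb also lost the call without cytosol ribosome-bound replicate 3 (-0.09 and -0.10). The exception in the matrix was Pam16, the motor subunit that regulates the J-domain partner, at 27.6, 27.3 and 28.5 CPM on cytosol-labelled and 41.2, 44.9 and 43.4 CPM on ER-labelled ribosomes (log2 ratio 0.64, SE 0.059, adjusted p = 1.0e-11). Pam16 shares exon bases with Glis2 on the other strand, and Glis2 itself had -0.15 (adjusted p = 0.078). Within the 5 PAM motor members the ratio therefore ran from -0.35 (Grpel1) to 0.81 (Dnajc19).

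Of the 6 genes of fusion, fission and transport, 0 were called higher on ER-labelled ribosomes and 4 (66.7%) lower. For all genes these shares were 29.1% and 24.6%. Mfn2 and Mfn1, the outer membrane fusion GTPases, gave -0.18 (adjusted p = 0.027) and 0.06 (adjusted p = 0.36), and Opa1, the inner membrane fusion GTPase, gave -0.10 (adjusted p = 0.044). Rhot1 and Rhot2, which attach mitochondria to motor proteins, gave -0.22 (adjusted p = 4.0e-05) and -0.16 (adjusted p = 0.091). Dnm1l, the cytosolic fission GTPase, read 110.3, 115.3 and 111.0 CPM on cytosol-labelled and 104.0, 100.9 and 102.8 CPM on ER-labelled ribosomes, groups that did not overlap (-0.13, SE 0.037, adjusted p = 0.0032). With cytosolic scaling all 6 were positive, at 0.01 to 0.30, and Mfn1, Opa1 and Dnm1l were called higher (0.30, 0.13 and 0.11). Mfn2 and Opa1 lost the call as lower without cytosol ribosome-bound replicate 3 (-0.15 and -0.07). Opa1 also lost it without ER whole-cell replicate 1, with only the groups compared and with a replicate block (-0.10 in each, adjusted p = 0.052, 0.067 and 0.052).

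Tomm34, a cytosolic co-chaperone that despite its name is no TOM subunit, had the lowest ratio of all members. It read 91.0, 96.4 and 88.5 CPM on cytosol-labelled and 64.1, 65.0 and 66.5 CPM on ER-labelled ribosomes, with 67.3 to 76.1 CPM in whole-cell RNA. The cytosol ribosome-bound libraries were above and the ER ribosome-bound ones below all whole-cell libraries. The ratio was -0.50 (SE 0.044, adjusted p = 3.7e-12), and -0.26, still called, with cytosolic scaling.

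**Figure D2:**
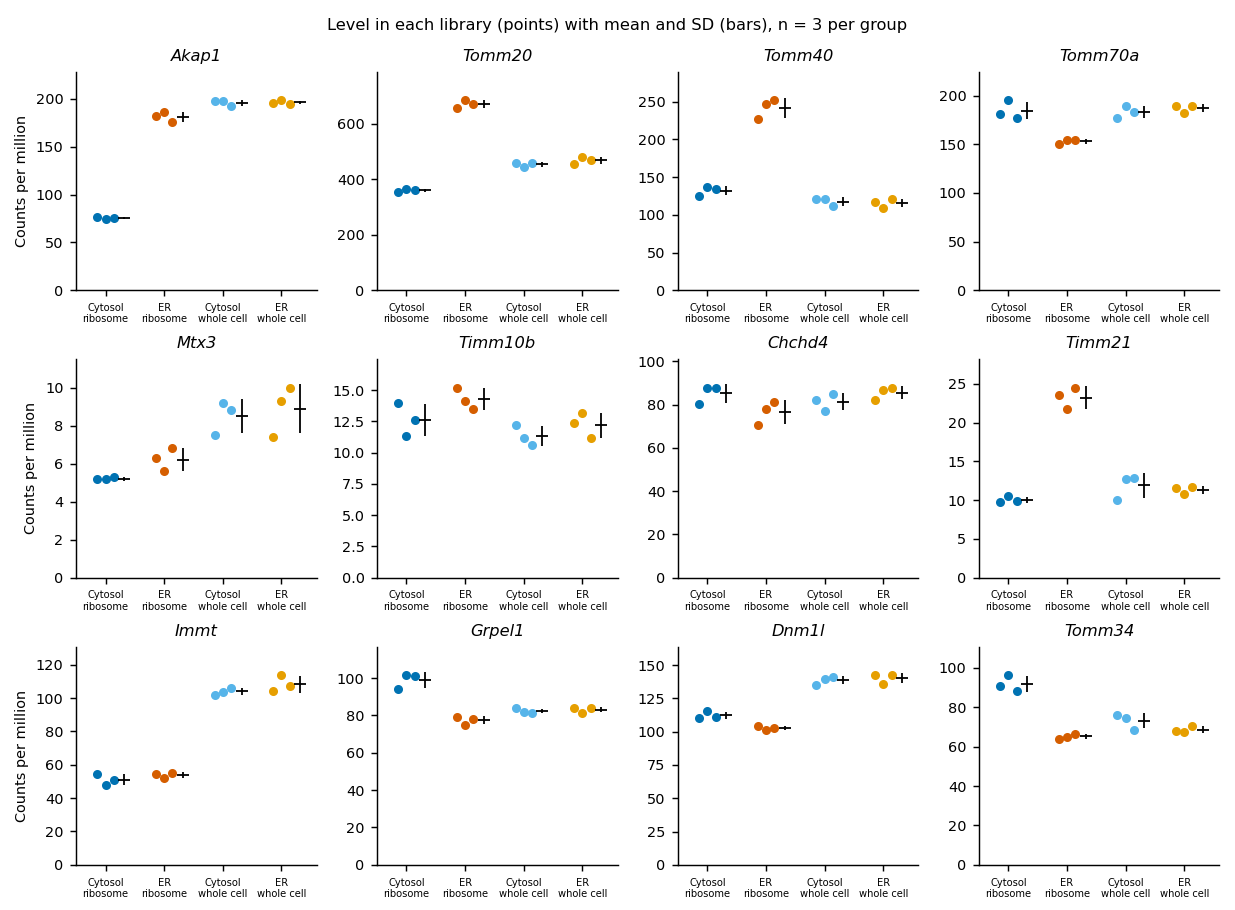
Level in CPM (y axis, from 0) in each library (points) of the 4 groups, with mean and SD (black), for the 12 members chosen by rank in the comparisons. Akap1 is low only on cytosol-labelled ribosomes (75.7 CPM against 181.3 or more elsewhere), Tomm40 and Timm21 are high only on ER-labelled ones, and Immt is at about the same low level on both.

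Hydrophobic segments were counted in the encoded proteins as windows of 19 residues averaging at least 1.6. The 15 members with a segment had a median ER to cytosol log2 ratio of 0.07, with 7 (46.7%) called higher and 4 (26.7%) lower. The 33 without had -0.06, with 8 (24.2%) and 15 (45.5%), beside 29.1% and 24.6% of all genes. In the inner membrane the 7 members with a segment had a median of 0.70 and the 4 without 0.07, whereas in the outer membrane the medians were 0.02 (7 members) and 0.07 (13 members). With a threshold of 1.8, the 9 members with a segment had a median of 0.30 and the 39 without -0.06. Akap1, Tomm40 and Pam16 were among the enriched members without a segment at either threshold. Rhot2, Mtx1 and Timm17a were among those with one at both thresholds and ratios of -0.16, 0.02 and -0.11. Akap1, at 1.58, lay just under the lower threshold, as did Timm23 and Rhot1 at 1.56. A member counted without a segment can therefore still have a membrane anchor. The cytosolic protein Dnm1l was counted as having a segment, at 1.64, so a segment need not be an anchor. These medians describe chosen members and carry no test.

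**Figure D3:**
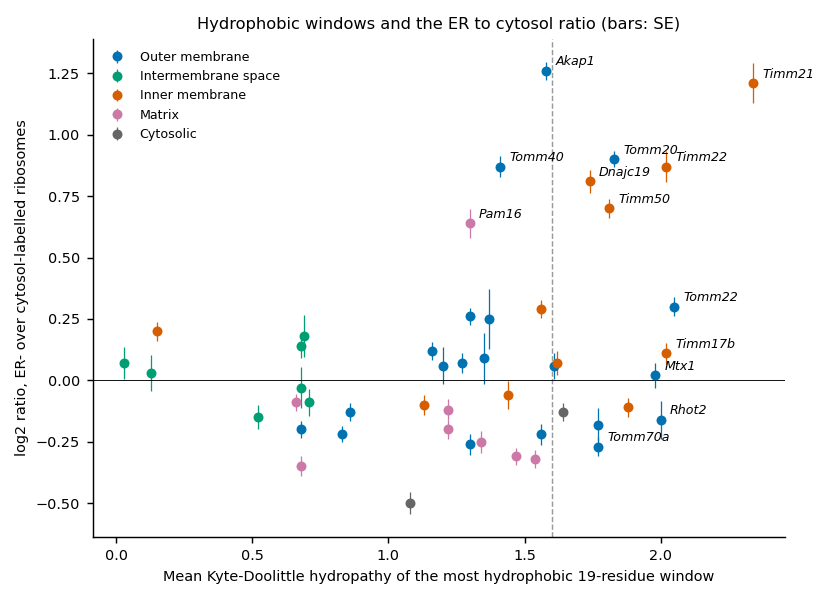
Mean Kyte-Doolittle hydropathy of the most hydrophobic 19-residue window (x axis, dashed line at 1.6) against the log2 ratio of ER-labelled over cytosol-labelled ribosomes (y axis, bars are SE) for the 48 members. Timm21, at 2.34, is highest on x and near the top on y, while Rhot2, Mtx1 and Timm17b, at 1.98 to 2.02, lie between -0.16 and 0.11.

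Set against whole-cell RNA of the same targeting, ER-labelled ribosomes carried more of 16 members and less of 23, against 32.5% and 30.6% of all genes tested. The median member ratio was -0.09, beside 0.01 for all genes. The largest was Tomm40, 1.06 (SE 0.044, 2.08-fold, adjusted p = 9.9e-22), followed by Timm21 at 1.03 (SE 0.082, adjusted p = 1.5e-13). Timm22 at 0.95, Timm50 at 0.68, Dnajc19 at 0.66, Pam16 at 0.58 and Tomm20 at 0.52 were also higher (adjusted p = 1.0e-15, 1.4e-17, 9.0e-15, 1.1e-10 and 2.8e-16). Akap1 was not among them: at -0.11 (SE 0.034, adjusted p = 0.0043) it was slightly lower than in whole-cell RNA, or 0.14 higher with cytosolic scaling, which moved the median of all genes by 0.252 here and gave 27 members higher and 12 lower (8543 and 2236 of all genes).

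The lowest ratio on ER-labelled ribosomes was that of Immt (ENSMUSG00000052337), the MICOS core protein also called mitofilin. It read 54.6, 51.9 and 55.0 CPM on ER-labelled ribosomes and 104.0, 113.8 and 107.1 CPM in ER-targeted whole-cell RNA, a log2 ratio of -1.01 (SE 0.046, adjusted p = 1.9e-20). On cytosol-labelled ribosomes it read 54.6, 48 and 50.6 CPM against 102.1, 103.5 and 106.2 CPM in whole-cell RNA, a ratio of -1.03 (SE 0.046, adjusted p = 3.7e-20). Every ribosome-bound library thus lay below every whole-cell library, at 0.497 of the whole-cell level with ER and 0.491 with cytosol targeting, and the groups within each fraction overlapped. A gene model on the other strand, Gm44771, shares exon bases with Immt.

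Cytosol-labelled ribosomes carried more of 10 members and less of 21 than whole-cell RNA, against 20.8% and 33% of all genes tested, with a median of -0.08 beside -0.05 for all genes. Without cytosol whole-cell replicate 1 the higher count was 16. Akap1 had the lowest ratio at -1.37 (SE 0.036, adjusted p = 9.0e-27, 0.386 of the whole-cell level), followed by Immt and by Mtx3 at -0.69 (SE 0.117, adjusted p = 4.6e-06). Mtx3 read 5.2, 5.2 and 5.3 CPM on cytosol-labelled ribosomes and 7.5, 9.2 and 8.8 CPM in whole-cell RNA, and on ER-labelled ribosomes 6.3, 5.6 and 6.8 CPM against 7.4, 9.3 and 10.0 CPM, so that both ribosome-bound groups lay under their whole-cell groups. The highest was Timm10 at 0.37 (adjusted p = 0.00012), then Tomm34 at 0.33 (adjusted p = 5.6e-08) and Mtx1 at 0.32 (adjusted p = 2.9e-06).

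These comparisons with whole-cell RNA share no library, and 15 members were called lower in both, 65.2% of those lower on ER-labelled and 71.4% of those lower on cytosol-labelled ribosomes. Over all genes tested 3037 were lower in both, 61.1% and 56.7% of those lower in each. The members' shares were thus near the background for ER and above it for cytosol targeting. As a share of all tested, 31.2% of the members and 18.7% of all genes were lower in both. The 15 members were Akap1, Immt, Mtx3, Timm8b, Vdac1, Vdac2, Mfn1, Mfn2, Opa1, Dnm1l, Rhot1, Hspa9, Hspe1, Pmpca and Pmpcb. The 6 dynamics genes were all called lower on ER-labelled ribosomes, with a median of -0.46, beside 30.6% of all genes. On cytosol-labelled ones 5 of 6 were called lower, with a median of -0.38, beside 33% of all genes. With cytosolic scaling 5 of 6 were lower on each. On ER-labelled ribosomes Mfn2 at -0.71, Opa1 at -0.69 and Rhot1 at -0.48 were the lowest of this group, and on cytosol-labelled ones Opa1 at -0.50, Mfn1 at -0.48 and Mfn2 at -0.46. The 5 members called higher in both were Tomm40, Timm10, Timm17b, Timm23 and Mtx1. They were 31.2% of those higher on ER-labelled and 50% of those higher on cytosol-labelled ribosomes, beside 29.4% and 45.9% over all genes. As a share of all tested, 10.4% of the members and 9.56% of all genes were higher in both.

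Tomm20, Timm21 and Dnajc19 departed from whole-cell RNA in opposite directions, called higher on ER-labelled and lower on cytosol-labelled ribosomes, at -0.33, -0.24 and -0.26 in the latter (adjusted p = 1.1e-10, 0.023 and 2.7e-05). The Timm21 decrease was no longer called in 15 of 20 alternatives. Grpel1 showed the opposite pattern, higher on cytosol-labelled ribosomes at 0.26 (adjusted p = 8.0e-07) and lower on ER-labelled ones at -0.10 (adjusted p = 0.031), but the latter became 0.15 with cytosolic scaling and was not called without any 1 of ER ribosome-bound replicate 2, ER whole-cell replicate 1 and ER whole-cell replicate 3 (-0.08 to -0.10). Timm22, Timm50 and Pam16 differed from whole-cell RNA on ER-labelled ribosomes by 0.58 or more, and on cytosol-labelled ones had ratios of 0.08, -0.02 and -0.01 that were not called.

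**Figure D4:**
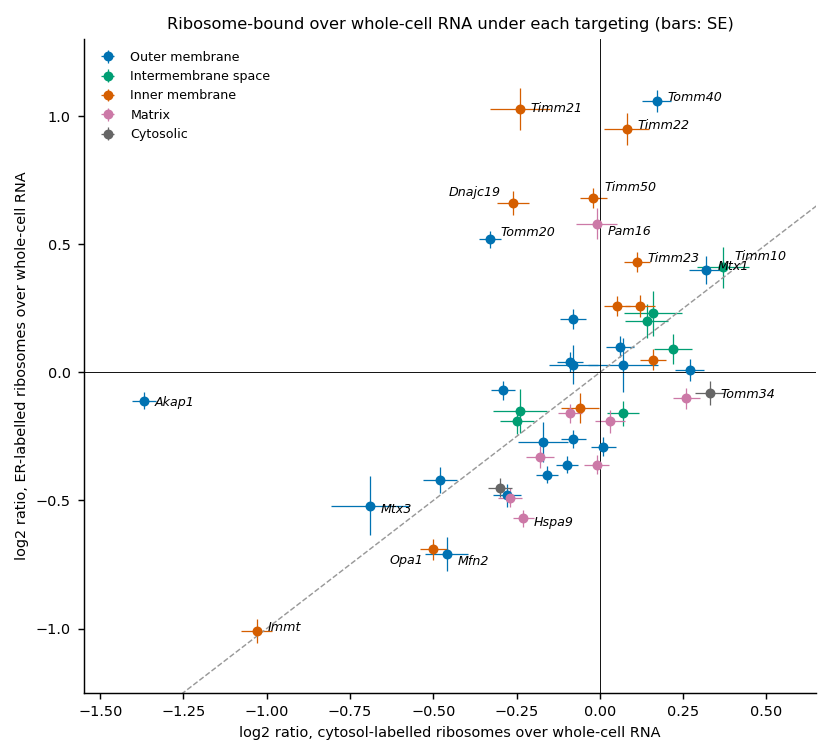
Log2 ratio of ribosome-bound over whole-cell RNA with cytosol targeting (x axis) and with ER targeting (y axis) for the 48 members; bars are SE and the dashed line marks equal ratios. Immt lies on the line at about -1 on both axes, Akap1 lies far left at -1.37 with -0.11 on y, and Tomm40, Timm21 and Timm22 lie near the top; cytosolic scaling would move all points up by about 0.252, which turns Akap1 positive on y.

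The test of the difference between the ER and cytosol ratios to whole-cell RNA called 13 members higher and 17 lower, against 24.8% and 18.6% of all genes tested. The largest differences were those of Timm21 (1.27, SE 0.122, adjusted p = 3.4e-11) and Akap1 (1.26, SE 0.050, adjusted p = 3.7e-22), then Dnajc19 (0.91), Tomm40 (0.89), Timm22 (0.88), Tomm20 (0.85), Timm50 (0.70) and Pam16 (0.59). Immt, low on both kinds of ribosome, had a difference of 0.02 (SE 0.065, adjusted p = 0.87). The lowest was Tomm34 at -0.40 (SE 0.063, adjusted p = 1.5e-06). Cytosolic scaling moved the median of all genes by 0.247 and gave 26 members higher and 1 lower.

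Levels per length, in CPM per kilobase of exon, ranged widely among members in cytosol-targeted whole-cell RNA. Hspd1 at 313.8, Vdac1 at 295.1, Hspe1 at 291.0 and Hspa9 at 216.4 were the most abundant, and Mtx3 at 1.1, Timm21 at 3.2 and Timm10b at 3.2 the least. None of the 4 most abundant members was called higher on ER-labelled than on cytosol-labelled ribosomes, beside 29.1% of all genes. These 4 are too few to relate level to ratio, and Hspd1, Hspe1 and Hspa9 are all matrix proteins. Tomm20 at 92.4 and Akap1 at 44.6 were of intermediate level.

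A wider list, also chosen with earlier results of these data known, held 52 other import and dynamics genes. In it, 51 were tested on ER-labelled against cytosol-labelled ribosomes. Of these, 25 (49.0%) were called higher and 12 (23.5%) lower, with a median of 0.12. The shares of all genes were 29.1% and 24.6%. With cytosolic scaling, which moved the median of all genes by 0.235, the list had 41 higher and 1 lower. Its 3 highest were Atad1 at 2.00, an outer membrane ATPase that extracts mislocalised proteins, Pld6 at 1.42, an outer membrane phospholipase family member, and Miga2 at 1.33, which promotes fusion. The 3 lowest were the matrix protease subunit Clpx at -0.39, the peptidase Mipep at -0.32 and Romo1, a small inner membrane protein, at -0.30. As a reference at each end, 19 of 20 ER translocon and folding genes were called higher, with a median of 2.13, and of 30 matrix enzymes 1 was called higher and 17 lower, with a median of -0.17 (0.06 with cytosolic scaling). The highest member, Akap1, was thus below the median of the ER genes. The matrix members' median of -0.22 was close to that of the matrix enzymes. It was also close to the median of the 59 cytosolic genes used for scaling, at -0.24. Of these, 7 were called higher and 44 lower. Lower ratios of this size were thus not particular to mitochondrial genes.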

How the data were processed

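Poly(A) RNA was sequenced in 12 libraries, 3 for each of 4 groups. The submitters' processing notes name STAR 2.7.9a, HTSeq 0.11.2, DESeq2 and the build GRCm39; the annotation release, strand setting and handling of reads with several matches were not given in the sources used here. The deposited values are raw counts per Ensembl gene identifier. Reads that the files list as assigned to no gene (8.75 to 12.54%) were left out of library sizes. Depth was 21110420 to 26920565 reads in genes.

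Identifiers were matched to symbols through GENCODE M21 (52083 of 55416, with 0.41% of counts unmatched), whose build, GRCm38, differs from that of the counts, so no coordinates are given. Counts were tested with edgeR 4.0.16 (R 4.3.3): filterByExpr by group, TMM scaling, 1 quasi-likelihood model over all 12 libraries, 2-sided tests and Benjamini-Hochberg adjustment over 16221 genes at 0.05. Levels are CPM with TMM factors. SE is the log2 ratio divided by the square root of the F statistic, and 95% intervals are 1.96 SE wide on each side. The biological coefficient of variation was 3.6%. The fit was run on simulated data with 50 changed genes at each fold. For ER-labelled over cytosol-labelled ribosomes it recovered 58% of 1.25-fold, 70% of 1.5-fold and 94% of 2-fold changes, with 5 false calls. Few genes were changed there, so the simulation cannot test the scaling of these data, where many genes differ.

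Proteins were translated from M21 coding sequences (Python 3.11.15, Biopython 1.88). In that annotation 22 of the 48 members share exon bases with another gene, 5 of them on the same strand, and 10 match a pseudogene at 95% identity or more over at least 150 bases (BLAST 2.17.0); the effect on their counts was not tested.

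The members, the other gene lists and the tests were chosen with earlier results of these data known. Values in every library are given for the 3 members with the largest called ratios in each comparison between ribosome-bound RNA or with whole-cell RNA and for the highest and lowest member of each compartment, and also, chosen after their values were seen, for Timm22, Timm50, Dnajc19 and Pam16. Alternatives were DESeq2 1.42.0, RLE factors, scaling to 59 cytosolic genes, no filter on low counts and mitochondrially encoded genes left out. Others were only the groups compared, each library left out in turn and a replicate block. The block was shared by all libraries or, for comparisons with whole-cell RNA and the difference of the ratios, set within each targeting.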

Additional observations from a re-analysis of the deposited data

Results flagged for a closer look

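For 30 of the 48 members the ratio of ribosome-bound to whole-cell RNA differed between ER and cytosol targeting by a test of the difference itself, the interaction term of edgeR's quasi-likelihood model with Benjamini-Hochberg adjustment over all genes. The difference in log2 ratio, ER minus cytosol, was positive for 13: Timm21 1.27, Akap1 1.26, Dnajc19 0.91, Tomm40 0.89, Timm22 0.88, Tomm20 0.85, Timm50 0.70, Pam16 0.59, Timm23 0.32, Tomm22 0.29, Samm50 0.22, Chchd3 0.21 and Tomm7 0.13. These are mostly TOM, TIM22 and TIM23 subunits, and Tomm7 lost the call in most alternatives.

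The difference was negative for 17 members. Among proteins of the matrix it was -0.37 for Grpel1, -0.36 for Hspd1, -0.33 for Hspa9, -0.23 for Timm44, -0.22 for Pmpca and -0.15 for Pmpcb. Among outer membrane proteins it was -0.30 for Tomm70a, -0.26 for Mtx2, -0.25 for Vdac1, -0.25 for Mfn2, -0.24 for Vdac2, -0.19 for Rhot1 and -0.18 for Vdac3. It was -0.23 for Chchd4 of the intermembrane space, -0.19 for Opa1 of the inner membrane, and -0.40 for Tomm34 and -0.15 for Dnm1l, which are cytosolic. With cytosolic scaling Tomm34 was the 1 member still called lower, at -0.16.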

How the results depend on the processing

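Of the values given for single members, Akap1, Timm21, Tomm20, Tomm40, Timm22, Dnajc19, Timm50 and Pam16 stayed called higher on ER-labelled than on cytosol-labelled ribosomes in all 19 alternatives run (lowest 0.54, Pam16; highest 1.50, Akap1). Scaling to cytosolic genes changed most. For ER-labelled over cytosol-labelled ribosomes it called 8184 genes higher and 644 lower, and 34 and 4 members, of which 13 and 0 outer membrane, 6 and 0 intermembrane, 14 and 3 inner membrane or matrix, and 1 and 1 cytosolic; for ER-labelled ribosomes over whole-cell RNA 8543 and 2236 genes, and 27 and 12 members; for the difference of the ratios 6642 and 356 genes, and 26 and 1 members. This scaling centres the libraries on the 59 cytosolic genes. With TMM scaling their median log2 ratio was -0.24 for ER-labelled over cytosol-labelled ribosomes and -0.26 for ER-labelled ribosomes over whole-cell RNA. Why these genes were lower was not tested.

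With that scaling these members changed sign. ER over cytosol ribosomes: Timm8a1 0.21, Apool 0.17, Timm13 0.15, Hspe1 0.14, Opa1 0.13, Timm17a 0.12, Pmpcb 0.12, Dnm1l 0.11, Vdac3 0.10, Chchd4 0.08, Rhot2 0.08, Mfn2 0.06, Pmpca 0.04, Vdac2 0.03, Vdac1 0.02 and Rhot1 0.01. ER ribosomes over whole-cell RNA: Samm50 0.19, Tomm34 0.18, Grpel1 0.15, Akap1 0.14, Apool 0.12, Chchd4 0.10, Timm8a1 0.10, Hspe1 0.09, Timm8b 0.07 and Timm44 0.06. Difference of ratios: Tomm6 0.20, Apool 0.17, Hspe1 0.17, Rhot2 0.15, Timm17a 0.14, Timm13 0.11, Dnm1l 0.10, Pmpcb 0.10, Vdac3 0.06, Opa1 0.06, Rhot1 0.05, Pmpca 0.03, Timm44 0.02, Chchd4 0.02 and Vdac2 0.01.

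Intermembrane members called higher on ER-labelled ribosomes were 0 with DESeq2, RLE factors, mitochondrially encoded genes left out or no filter on low counts, and those called lower were 2 with the last 3 of these; with no filter, 7 genes were lower in ER than in cytosol whole-cell RNA. Leaving out 1 library at a time gave 12 to 16 members higher and 15 to 21 lower on ER-labelled over cytosol-labelled ribosomes, with 0 to 1 and 1 to 2 intermembrane and 6 to 10 lower inner membrane or matrix members. It gave 9 to 16 higher (16 without cytosol whole-cell replicate 1) and 16 to 21 lower on cytosol-labelled ribosomes over whole-cell RNA, and 0 to 2 genes lower between the whole-cell groups (2 without cytosol whole-cell replicate 3).

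Replicate numbers were not taken as pairing the libraries. Deviations from the group mean correlated at -0.266 to 0.263 over the 18 same-numbered pairs (9612 genes), which include pairs across targetings. Within a targeting, numbers 1, 2 and 3 gave 0.096, 0.100 and 0.056 for cytosol and -0.007, 0.259 and 0.263 for ER, and 5 of 6 cytosol-targeted and 4 of 6 ER-targeted libraries correlated best with their own number in the other fraction, a hint from the data that leaves a partial pairing possible. With a replicate block 15 members were called higher and 18 lower on ER-labelled ribosomes over cytosol-labelled ones, and 99 of 102 single-member results kept their side of the threshold; the others were Opa1 for ER-labelled over cytosol-labelled ribosomes (-0.10) and Tomm7 and Pmpcb for the difference of the ratios (0.13 and -0.15). A replicate block set within each targeting was run for the comparisons with whole-cell RNA and the difference of the ratios. It left all 54 single-member results there on the same side of the threshold. The 3 libraries a group, with a spread of 3.6% between them, limit how small a ratio can be called.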
